A study of Mus musculus with 6 samples.

Results

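Cytosolic ribosomal proteins are the protein parts of the ribosome that translates messages outside mitochondria. Their messages were measured in heart tissue, from the left ventricle, of 6 male mice of the inbred strain C57BL/6. All mice were 6 months old and had been fed a high fat diet for 16 weeks; 3 were labelled placebo and 3 with an agent that the labels call Lira and do not spell out. Each mouse gave 1 Affymetrix expression array, which reports a linear fluorescence signal per probe set. Genes were taken by symbol, as Rpl or Rps with a number or as Rplp0, Rplp1, Rplp2 or Rpsa, without pseudogenes and kinases. A gene also needed at least 1 probe set that names it alone. This gave 49 genes of 18193 on the array, 26 of the large and 23 of the small subunit, with 105 probe sets. A further 28 ribosomal protein genes, among them Rpl3, Rpl5, Rpl10 and Rplp1, were named only on probe sets shared with other genes and are given no level here. Each gene was read through its brightest probe set. 48 of the 49 were among the 12736 genes bright enough to be tested, and Rps16 was not, with a signal between 0.401 and 0.671 on all arrays.

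Each ribosome holds 1 copy of most of these proteins, and cells make them in step with ribosomal RNA. Their messages are short and abundant, and many start with a cytosine followed by an unbroken run of pyrimidines, the 5' terminal oligopyrimidine tract or 5' TOP. Through this tract the growth-sensing kinase complex mTORC1 sets how strongly they are translated, with the RNA-binding protein Larp1 as the brake. The level of such a message on an array therefore does not tell how much of the protein is made. Heart muscle raises ribosome production when it grows. It also expresses Rpl3l, a copy of Rpl3 that is restricted to heart and skeletal muscle.

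The start sites of 43 of the 49 genes were found in RefSeq promoter windows of the mouse build GRCm38.p6, as 51 windows of 300 bases, from 250 before to 50 after the start. A cytosine within 5 bases of the start followed by at least 4 pyrimidines was found in 21 of the 51 windows, or 41.2%, against 18.3% of all 32851 windows. The runs had a median length of 8 bases and a range of 5 to 20. The ETS factor core CCGGAAG stood on either strand of 41.2% of the windows of ribosomal protein genes and of 8.86% of all windows. The YY1 motif AAGATGGC on either strand was in 7.84% against 2.75%. TATAAA starting 20 to 40 bases before the start, on the same strand, was in 1.96% against 1.99%. A match describes letters only and no factor's binding was measured. The windows below run from 40 bases before to 20 after the start and are shown because the pyrimidine run is the feature that many of these genes share. Capitals mark the run.
Rplp2, chr7:141447611-141447670, plus strand: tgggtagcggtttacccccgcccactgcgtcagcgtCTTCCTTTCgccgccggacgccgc
Rpl38, chr11:114668540-114668599, plus strand: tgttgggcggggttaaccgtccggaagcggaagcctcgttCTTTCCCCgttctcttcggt
Rpl13a, chr7:45128726-45128785, minus strand: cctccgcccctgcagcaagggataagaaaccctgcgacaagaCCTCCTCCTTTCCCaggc
Rps6, chr4:86857348-86857407, minus strand: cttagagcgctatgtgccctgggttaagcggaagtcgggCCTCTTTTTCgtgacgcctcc
Rps27, chr3:90213629-90213688, minus strand: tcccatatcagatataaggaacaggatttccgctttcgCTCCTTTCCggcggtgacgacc
Rps27l, chr9:66946046-66946105, plus strand: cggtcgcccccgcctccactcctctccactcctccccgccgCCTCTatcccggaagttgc

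Windows in which no such run begins within 5 bases of the start are shown next. They are those of Rplp0 and Rpl4, whose signals separated the groups on all 6 arrays, and of the muscle gene Rpl3l. Pyrimidine runs elsewhere in these windows, as upstream of the start in Rpl4, are not marked. The absence of the run says only that these letters are not at this annotated start. Rpl3l has 2 annotated starts, of which the first is shown.
Rplp0, chr5:115559427-115559486, plus strand: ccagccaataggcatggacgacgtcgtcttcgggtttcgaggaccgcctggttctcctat
Rpl4, chr9:64173347-64173406, plus strand: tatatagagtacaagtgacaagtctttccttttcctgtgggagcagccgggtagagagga
Rpl3l, chr17:24727786-24727845, plus strand: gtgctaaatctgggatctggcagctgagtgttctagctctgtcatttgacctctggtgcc

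Cardiomyocyte markers were far brighter than blood cell markers on every array. The summed signal of 9 cardiomyocyte markers was 220947 to 275352 on the 6 arrays, against 32.4 to 111 for the 3 red cell markers measured and 60.2 to 141 for 6 T and B cell markers. The extraction text of the labels speaks of blood, the sample description and the design text of left ventricle. The ratio of 3' to 5' signal, a measure of RNA integrity, was 0.781 to 0.830 for Gapdh and 1.55 to 1.74 for actin, with the groups overlapping. Every array had been scaled to a trimmed mean of 150.0, so a difference is one relative to the other genes on the array. There is no read depth here, and precision is limited by having only 3 arrays per group.

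The 3 placebo arrays lay apart from each other for these genes before any comparison. Each tested gene's log2 value was taken as a deviation from its mean over the 6 arrays, and the median over the 48 genes was found for each array. It was -0.098, -0.063 and 0.082 in placebo replicates 1, 2 and 3, and 0.013, 0.034 and 0.022 in Lira replicates 1, 2 and 3. Placebo replicates 1 and 2 were therefore low and placebo replicate 3 was the highest of all arrays, while the Lira arrays lay close together between them. Placebo replicate 1 was the lowest of the 6 arrays in 22 of the 48 genes, or 45.8%, against 15.2% of all tested genes. Placebo replicate 3 gave the highest signal of the 3 placebo arrays in 40 of the 48 genes, or 83.3%, against 36.3% of all tested genes. Its median was also the placebo median nearest to those of the Lira arrays. The other 1401 tested genes whose mean signal was at least 1000 had a median deviation of 0.025 on this array. Most results that rest on placebo replicate 3 are also given without it.

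**Figure D1:**
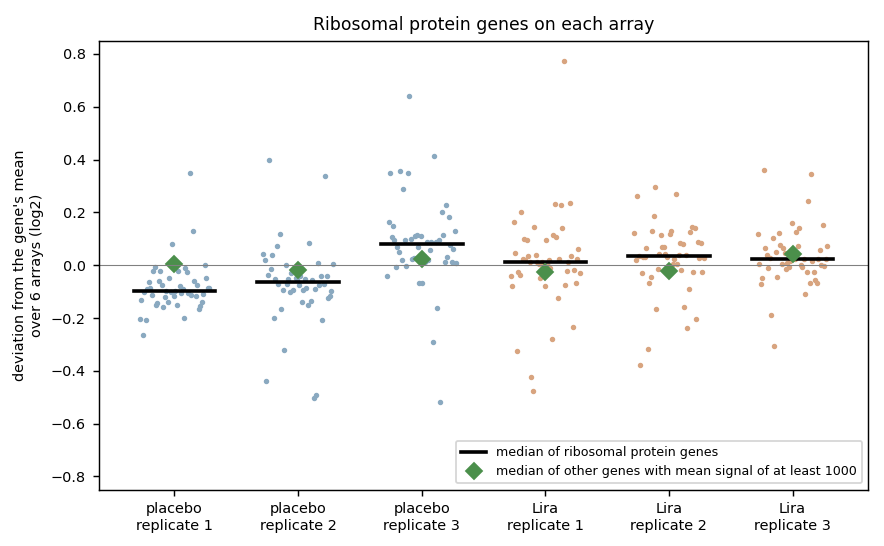
Deviation of each of the 48 tested ribosomal protein genes from its mean over 6 arrays (log2, vertical axis) on each array (horizontal axis), with black bars for their median and green diamonds for the median of other genes with a mean signal from 1000 upward. The bars lie at -0.098 and -0.063 in placebo replicates 1 and 2, at 0.082 in placebo replicate 3 and between 0.013 and 0.034 on the Lira arrays.

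The comparison of Lira with placebo asked what the agent did to the obese heart. No ribosomal protein gene passed an adjusted p of 0.05 in limma with Benjamini-Hochberg adjustment, where 7 of all 12736 genes passed (0.055%), and the lowest adjusted p among the 48 was 0.817. At an unadjusted p below 0.05 in the same fit, 1 gene was higher with Lira, Rplp0, where 2.91% of all genes were, and none was lower, where 3.12% were. All 3 Lira arrays lay above all 3 placebo arrays in 2 genes, Rplp0 and Rpl4, or in 5.98% of all genes. They lay below in none, or in 5.41% of all genes. These shares are near the background of the array.

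The differences were small and mostly of one sign. The log2 difference, Lira minus placebo, was above 0 in 39 of 48 genes, or 81.25%, where 51.9% of all genes were above 0. Its median was 0.062, a 1.04-fold difference, against 0.0082 for all tested genes and 0.0022 for the other genes with a mean signal from 1000 upward. The difference was within 0.1 of 0 in 29 of the 48 genes, or 60.4%, against 41.5% of all genes. The 26 genes of the large subunit had a median of 0.039 with 20 above 0, and the 22 tested genes of the small subunit had a median of 0.072 with 19 above 0. Genes that vary together on each array do not give independent signs, so these counts are a description with no test.

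**Figure D2:**
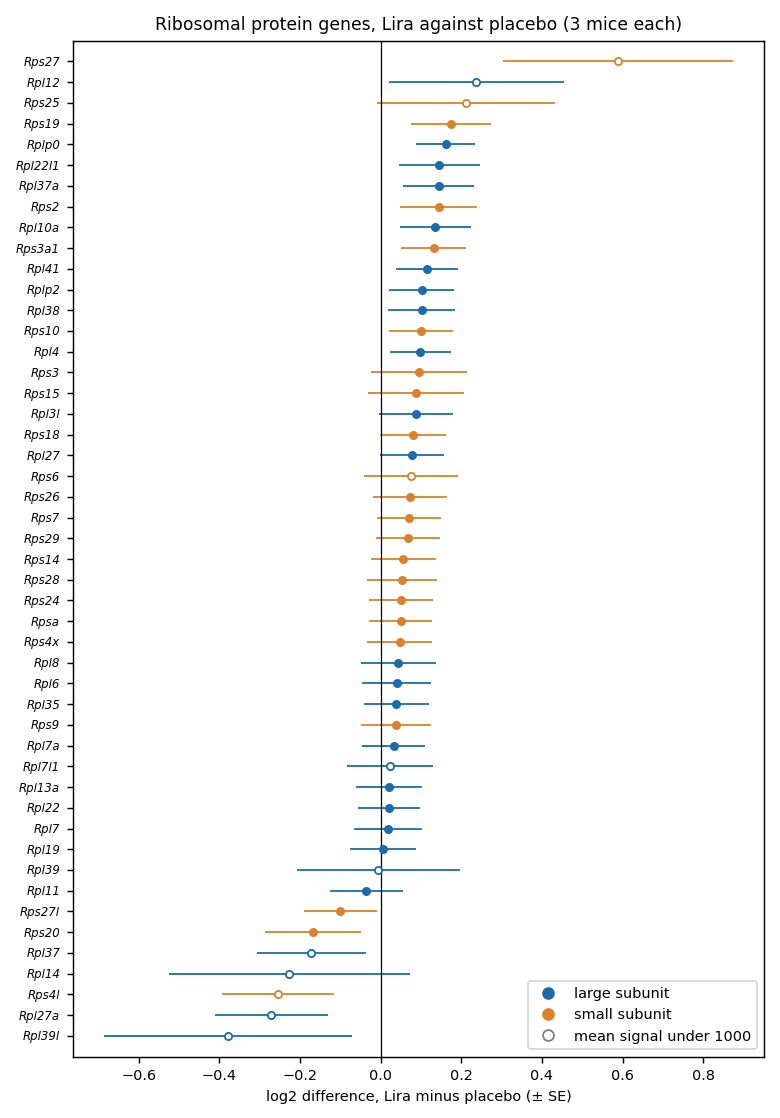
Log2 difference, Lira minus placebo, with its SE (horizontal axis) for each of the 48 tested ribosomal protein genes (vertical axis, sorted), 3 mice per group. 39 points lie above 0, and the 7 points beyond 0.2 in either direction are open symbols, genes with a mean signal under 1000.

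**Figure D3:**
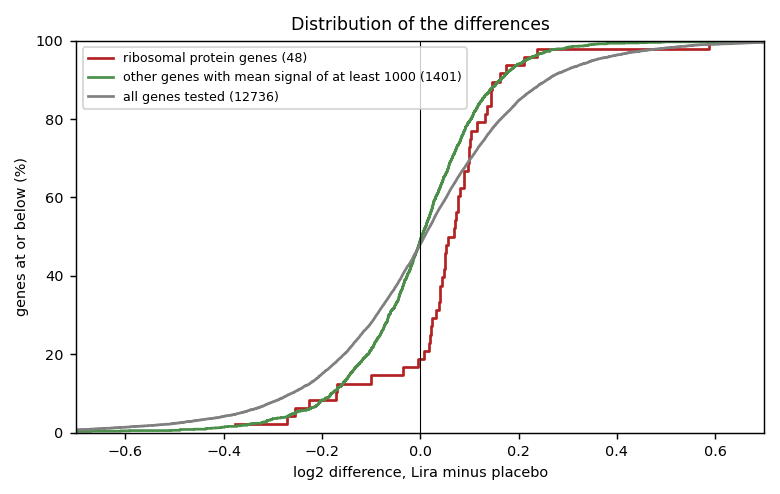
Share of genes (%, vertical axis) at or below each log2 difference, Lira minus placebo (horizontal axis), for ribosomal protein genes, other genes with a mean signal from 1000 upward and all tested genes. The curve of the ribosomal protein genes lies to the right near 0, with a median of 0.062 against 0.0022 and 0.0082.

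Without placebo replicate 3 the picture was larger in the same direction. The median log2 difference was 0.11, a 1.08-fold difference, and 40 of 48 genes were above 0. All 3 Lira arrays then lay above both remaining placebo arrays in 25 of 48 genes, or 52.1%, against 10.8% of all genes. Placebo replicate 3 was the highest placebo array in 83.3% of the 48 genes and in 36.3% of all genes. Leaving it out therefore favoured separation in the 48 more than in all genes, so these shares are not a like comparison. This holds for the count by unadjusted p as well. At an unadjusted p below 0.05, the number higher was 7, against 2.43% of all genes, and none was lower. These were Rpl37a, Rps19, Rps3, Rpl12, Rps3a1, Rplp0 and Rpl22l1. No gene of the 48 passed the adjusted threshold there either, and the lowest adjusted p was 0.847. Leaving out placebo replicate 1 or 2 instead brought the median to 0.036 and 0.035, with 32 and 37 genes above 0. How many genes separate the groups thus rested on which placebo arrays were compared.

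Ribosomal protein genes also varied together within the groups. Over deviations from the group means on 6 arrays, the median correlation between 2 of the 48 genes was 0.45, and 75.1% of 1128 pairs were above 0. It was 0.55 among the 37 genes with a mean signal from 1000 upward, against 0.093 among other genes that bright and 0.0030 among all tested genes. The arrays are shared by all pairs, so these values are a description. They include the spread between the placebo arrays, whose median deviations ran from -0.098 to 0.082, against 0.013 to 0.034 on the Lira arrays. The correlations were not computed without placebo replicate 3. By their median, the bright genes varied little by themselves. Some varied more, such as Rps20 at 9235 ± 1941 with placebo (SD, n = 3). The median within-group SD was 0.084 on the log2 scale for the 37 bright genes, against 0.11 for other genes that bright.

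The P stalk of the large subunit recruits elongation factors to the ribosome. Rplp0 (Entrez 11837), the base of the stalk, gave signals of 13484, 13706 and 13777 with placebo and 15416, 15667 and 14759 with Lira. The groups did not overlap, and the placebo arrays were close to each other, placebo replicate 3 included. The mean was 13656 ± 153 with placebo and 15281 ± 469 with Lira (SD, n = 3 each). The log2 difference was 0.16 ± 0.073 (SE), with an unadjusted p of 0.0456 and an adjusted p of 0.817 in limma, and without placebo replicate 3 it was 0.17. Rplp2, which forms the mobile part of the stalk with Rplp1, gave 11726, 12654 and 13320.3 with placebo and 12982, 14244 and 13224 with Lira. Here placebo replicate 3 lay above 2 of the 3 Lira arrays, and the log2 difference was 0.10 ± 0.081 (adjusted p = 0.892 in limma), or 0.15 without that array.

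Rpl4 (Entrez 67891), which lines part of the tunnel through which the new protein leaves, gave 8443, 8853 and 9322 with placebo and 9435, 9460.3 and 9591 with Lira. The groups did not overlap, by a narrow gap to placebo replicate 3. The log2 difference was 0.099 ± 0.077 (SE), with an unadjusted p of 0.218 in limma, and 0.14 without placebo replicate 3. Rpl37a, of the large subunit, gave 9667, 9513 and 11428 with placebo and 10945, 11702 and 11070.1 with Lira. Placebo replicate 3 was again among the Lira values, and the log2 difference of 0.14 ± 0.088 became 0.23 ± 0.078 without it.

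Rpl11 and Rpl5 bind Mdm2 when ribosome assembly is disturbed, which stabilises p53. Rpl11 gave 4513, 5025 and 5552 with placebo and 4686, 5023 and 4969 with Lira. Its Lira values lay inside the placebo range, with a log2 difference of -0.035 ± 0.090, which was 0.038 without placebo replicate 3. Rpl13a, which can leave the ribosome to silence inflammatory messages, had a mean of 11710.4 ± 874 with placebo and 11864 ± 429 with Lira (SD, n = 3 each). Rpl22, which binds RNA outside the ribosome as well, had means of 8406 ± 297 and 8526 ± 249, and Rpl7 had means of 6800.1 ± 531 and 6877 ± 282. Their log2 differences were 0.021, 0.021 and 0.018, each smaller than its SE, and 0.079, 0.022 and 0.081 without placebo replicate 3.

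Among the small subunit genes, Rps19, whose human counterpart is mutated in Diamond-Blackfan anaemia, had the largest log2 difference of those with a mean signal from 1000 upward. It gave 3270.3, 3385 and 3989 with placebo and 4417, 3855 and 3738 with Lira. The groups overlapped through placebo replicate 3, and the log2 difference was 0.17 ± 0.099 (unadjusted p = 0.101 in limma) and 0.26 ± 0.093 without that array. Rps3, a protein at the entry of the message channel that also takes part in DNA repair, gave 4469.7, 4348 and 5877 with placebo and 5913, 4924 and 4793 with Lira. 1 array of each group was high and the other values were close, so the log2 difference of 0.096 ± 0.12 was smaller than its SE. It was 0.23 ± 0.099 without placebo replicate 3.

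Rpsa, also known as a laminin receptor, gave 5548, 5909 and 5922 with placebo and 5773, 6010.4 and 6202 with Lira, a log2 difference of 0.049 ± 0.078. Rps4x, which is X-linked, had means of 8589 ± 564 and 8869 ± 358 (SD, n = 3 each), a log2 difference of 0.048 that was 0.098 without placebo replicate 3. Rps2 and Rps20 went opposite ways on placebo replicate 3. Rps2 gave 11493, 12277 and 9458 with placebo and 11777 to 12472 with Lira, so that this array was the lowest. Rps20 gave 8429, 7826 and 11448 with placebo and 7884, 8473 and 7959.7 with Lira, so that this array was the highest. Their log2 differences of 0.14 and -0.17 became 0.034 and -0.0037 without it.

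**Figure D4:**
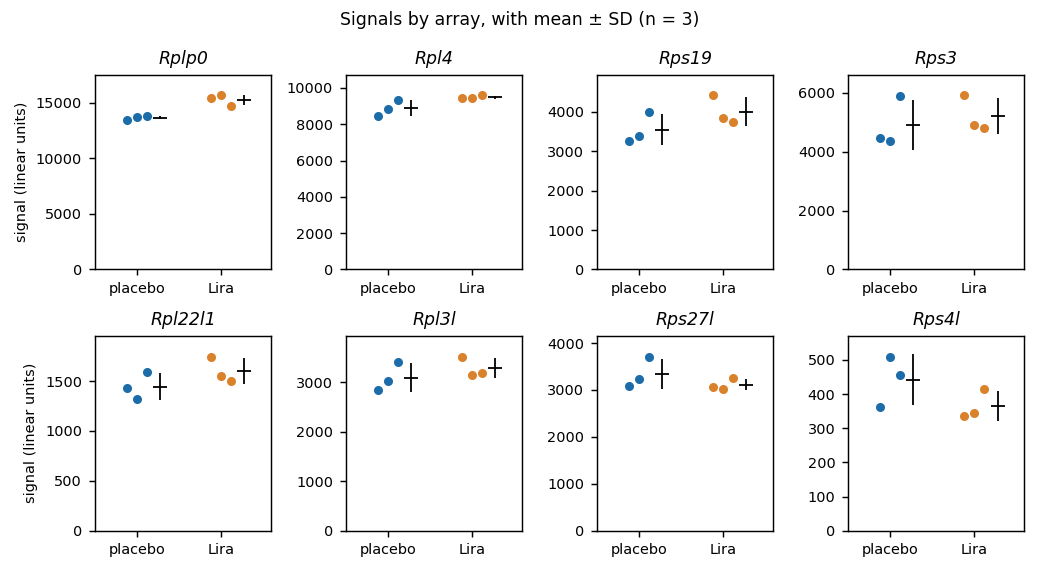
Signal in linear units (vertical axis, from 0) on each placebo and Lira array for 8 ribosomal protein genes, with mean ± SD (n = 3) beside the points. The groups are separate in Rplp0 and Rpl4 and overlap in the other 6 genes, and the highest placebo point is replicate 3 in all panels but Rps4l.

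Genes read through dim probe sets behaved differently from bright ones. Of the 37 tested genes with a mean signal from 1000 upward, 34 were higher with Lira, with a median log2 difference of 0.071, and none differed by more than 0.2 in either direction. Of the 11 below that level 5 were higher, the median was -0.0052, and 7 differed by more than 0.2. A dim probe set need not mean a dim gene. Of the 12 genes with a mean signal under 1000, Rps16 included, 9 were also named on a shared probe set with a mean signal from 1000 upward. The other 3 were Rpl7l1, Rpl39l and Rps4l.

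Rps6, the small subunit protein that S6 kinases phosphorylate downstream of mTORC1, was read at 326, 298 and 329 with placebo and at 311, 333 and 364 with Lira. The groups overlapped, with a log2 difference of 0.076 ± 0.12. Rps27 had the largest log2 difference of the 48 genes, 0.59 ± 0.29, on a probe set at 62.1, 34.9 and 33.9 with placebo and 106, 44.7 and 74.9 with Lira. The groups overlapped at this low level (unadjusted p = 0.0596 in limma). Rpl27a, of the large subunit, was read at 359, 384 and 471 with placebo and 392, 289.9 and 318 with Lira, a log2 difference of -0.27 ± 0.14 (unadjusted p = 0.0735 in limma) that was -0.16 without placebo replicate 3. The 9 genes below 0 were Rpl11, Rpl14, Rpl27a, Rpl37, Rpl39, Rpl39l, Rps4l, Rps20 and Rps27l.

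All 105 probe sets of the 49 genes were also looked at one by one. Of the 70 with a mean signal from 1000 upward, 56 were higher and 14 lower with Lira, and the median log2 difference was 0.061. More than 1 such probe set was found for 18 genes. In 10 of them all such probe sets gave the same sign and in 8 they did not, namely Rpl13a, Rpl27, Rpl35, Rps7, Rps9, Rps10, Rps20 and Rps24. Most of the single-gene probe sets with a mean signal under 1000 were lower with Lira, the reverse of the bright ones. Their log2 differences ran from -0.92 ± 0.32 for an Rps10 probe set at a mean of 37.1 to 0.59 for Rps27. An Rpl37a probe set at a mean of 204 differed by -0.63 ± 0.22, where the bright ones of this gene were higher. These Rps10 and Rpl37a probe sets had the largest differences relative to their SE of all 105. The 110 probe sets that name a ribosomal protein gene together with other genes, in 104 cases a pseudogene or predicted copy, were not used for any gene. The 80 of them with a mean signal from 1000 upward were higher with Lira in 66 cases, or 82.5%, with a median of 0.070 and a range of -0.21 to 0.21. Placebo replicate 3 was the highest placebo array in 73 of these 80, and without it the median was 0.11. The shared probe sets thus had the same array pattern as the single-gene ones. They may detect the same transcripts and are no independent measurement.

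**Figure D5:**
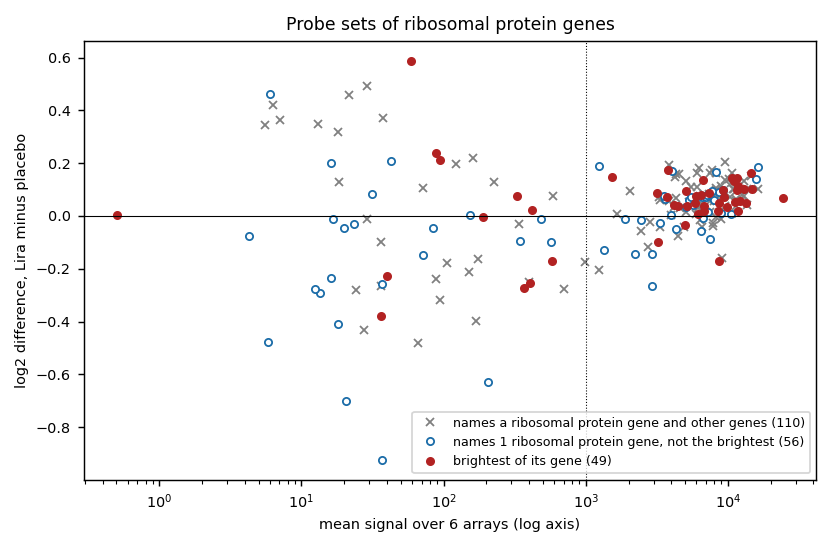
Log2 difference, Lira minus placebo (vertical axis), against mean signal over 6 arrays (log axis) for probe sets of ribosomal protein genes: the brightest of each gene, its other single-gene probe sets, and probe sets shared with other genes. Right of the dotted line at 1000, 56 of 70 single-gene and 66 of 80 shared probe sets lie above 0, and the wide spread is left of it.

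Several ribosomal proteins have a second gene that can take the place of the common one in some tissues. Rpl3l (Entrez 66211), the heart and skeletal muscle copy of Rpl3, gave 2849, 3023 and 3407 with placebo and 3513, 3145 and 3191 with Lira. Placebo replicate 3 lay within the Lira range, and the log2 difference was 0.088 ± 0.092 (adjusted p = 0.935 in limma), or 0.16 without that array. Rpl22l1, the copy of Rpl22, gave 1426, 1318 and 1591 with placebo and 1744, 1548 and 1505 with Lira. Its groups overlapped, and the log2 difference of 0.15 ± 0.10 was 0.22 ± 0.10 without placebo replicate 3. Rps27l, a p53-responsive copy of Rps27, gave 3093, 3241 and 3709 with placebo and 3056, 3031 and 3259 with Lira. Its log2 difference was -0.10 ± 0.090, and -0.024 without placebo replicate 3.

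Rps4l was read at 361, 509 and 455 with placebo and 337, 344 and 416 with Lira, a log2 difference of -0.25 ± 0.14. Rpl39l, a copy of Rpl39 best known from the testis, was near the low end of the array at 20.4 to 63.0. Rpl39 was read at 134 to 240.2. Rpl7l1, a relative of Rpl7, was read at 398 to 443. In 5 pairs with both genes tested, the change of the copy was compared with that of the common gene on each array. The copy's log2 difference exceeded the common gene's by 0.0050 for Rpl7l1 and 0.13 for Rpl22l1, and the gap was -0.37 for Rpl39l, -0.30 for Rps4l and -0.69 for Rps27l. The last of these rests on the dim probe set of Rps27. Without placebo replicate 3 the gaps were -0.085, 0.19, -0.32, -0.33 and -0.50 in this order, and with averaged probe sets the gap of Rps4l was -0.075. On all 6 arrays the exact two-sided permutation p was 1, 0.5, 0.3, 0.2 and 0.2, and 0.5 to 1 after Benjamini-Hochberg adjustment over the 5 pairs. With 3 against 3 mice it cannot go below 0.1, so no unequal change could pass at 0.05.

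Other genes of the ribosome and translation machinery were taken from fixed lists. Fau, which encodes the ribosomal protein S30 fused to a ubiquitin-like part, had means of 5519 ± 308 and 5772 ± 132 (SD, n = 3 each), a log2 difference of 0.066 that was 0.11 without placebo replicate 3. Of 21 tested translation factors and others with 5' TOP messages, 13 were higher and 8 lower, and the median was 0.024, against 0.0082 for all genes. Without placebo replicate 3 the median was 0.070, with 14 higher. None passed the adjusted threshold. Eef1a1, which brings aminoacyl-tRNA to the ribosome, gave 9000.3, 8715 and 7011 with placebo and 9204, 9550.4 and 9279 with Lira. Its groups did not overlap, and placebo replicate 3 was the lowest array here, the reverse of its place for most ribosomal protein genes. The log2 difference was 0.19 ± 0.096 (unadjusted p = 0.0704 in limma) and 0.077 ± 0.077 without that array. Eef2, the translocation factor, was also higher on all Lira arrays, at 0.096 ± 0.078. Tpt1 and Npm1, a tumour protein and a nucleolar chaperone, differed by 0.097 ± 0.095 and -0.0033 ± 0.096, the latter by 0.070 without placebo replicate 3. Vim, the intermediate filament gene vimentin, differed by -0.31 ± 0.12 (unadjusted p = 0.0233 in limma) on a probe set that ends in _x_at. It differed by -0.17 without placebo replicate 3, and by 0.15, in the other direction, without probe sets that end in _s_at or _x_at.

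Of 28 other initiation and elongation factors, 17 were higher and 11 lower; their median was 0.028, or 0.013 without placebo replicate 3. At an unadjusted p below 0.05 in limma, Eef1a2, the muscle and neuron form of Eef1a1, was higher (0.30 ± 0.14), and Eif3a, the scaffold of initiation factor eIF3, was lower (-0.34 ± 0.12). Each alone is 3.57% of the list, where 2.91% of all genes were higher and 3.12% lower. Placebo replicate 3 gave 3938 for Eef1a2 against 5946 and 6252 on the other placebo arrays, and without it the difference was 0.093 ± 0.085. That of Eif3a was -0.32 without this array. Ribosome biogenesis factors were split evenly, with 32 of 63 higher and a median of 0.0044, or 0.030 without placebo replicate 3. Noc4l, Gnl3l and Imp3 of this list were higher at an unadjusted p under 0.05, or 4.76% of the list against 2.91% of all genes, and none was lower. The log2 difference of Noc4l was 0.38 ± 0.15 on its brightest probe set and 0.045 with averaged probe sets. Ncl, the nucleolar protein nucleolin, differed by 0.20 ± 0.097 and Fbl, the ribosomal RNA methylase fibrillarin, by -0.0024 ± 0.14. Without placebo replicate 3 these were 0.10 and 0.13. For RNA polymerase I and its factors, which transcribe ribosomal RNA, 10 of 15 were higher with a median of 0.081, which turned to -0.049 with averaged probe sets. Polr1e was lower (-0.41 ± 0.14) and Taf1c higher (0.64 ± 0.26) at an unadjusted p under 0.05. Each alone is 6.67% of this short list, against 3.12% of all genes lower and 2.91% higher. Without placebo replicate 3 the unadjusted p of Taf1c was 0.0532 in limma. Ubtf differed by 0.24 ± 0.16, or by 0.064 without placebo replicate 3. No gene of these 3 lists passed the adjusted threshold in limma.

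Among 22 tested regulators of ribosomal protein synthesis, 12 were higher and 10 lower. Their median was 0.038, which was -0.0074 without Lira replicate 3. At an unadjusted p below 0.05 in limma 2 were higher, or 9.09% of the list against 2.91% of all genes. The number lower was also 2, or 9.09% against 3.12%. Ddit4, an inhibitor of mTORC1, was the only gene of the ribosome and translation lists past the adjusted threshold. It gave 2347, 2003 and 1807 with placebo and 1289, 1199.8 and 1193 with Lira, with every Lira array below every placebo array. The log2 difference was -0.73 ± 0.10 (adjusted p = 0.022 in limma). It missed the threshold without placebo replicate 1 or 2 (adjusted p = 0.0691 and 0.0687) and without Lira replicate 1, 2 or 3 (0.0702, 0.0736 and 0.219), and passed without placebo replicate 3 (0.00658). It also missed it with median centring (0.0791), averaged probe sets (0.113), no filter (0.0815) or no variance trend (0.904). Eif4ebp1, the translation repressor that mTORC1 inactivates, gave 1618, 1394 and 1607 with placebo and 1042, 1115 and 1251 with Lira, again with no overlap. Its log2 difference was -0.43 ± 0.10 with an adjusted p of 0.361 in limma, and -0.26 without probe sets that end in _s_at or _x_at. Zfp36l1 was higher on all Lira arrays, with a log2 difference of 0.34 ± 0.12 (unadjusted p = 0.0111, adjusted p = 0.644 in limma). Myc, which drives ribosome production, was dim at 9.89 to 31.6 with placebo and 27.6 to 68.2 with Lira. Its log2 difference was 0.92 ± 0.37 (unadjusted p = 0.0282 in limma), or 0.77 without placebo replicate 3. Larp1 differed by -0.072 ± 0.098. Of 10 tested genes of the p53 response to ribosomal stress 3 were higher and 7 lower; the median was -0.14, or -0.082 without placebo replicate 3, with no gene past the adjusted threshold. Sesn1 was the only one with an unadjusted p below 0.05 in limma, at -0.37 ± 0.16, and at -0.16 ± 0.12 without placebo replicate 3. This single gene is 10% of the list, against 3.12% of all genes lower.

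Markers of cell types were set beside these values. All 9 macrophage markers had a positive log2 difference, with a median of 0.21 and summed signals of 4156 to 4875 with placebo and 4633 to 5634 with Lira. All 7 general leukocyte markers did too, with a median of 0.20 and sums of 842 to 992 and 958 to 1214. Cardiomyocyte markers were higher in 8 of 9, with a median of 0.11. Their median deviation was 0.0075, 0.22 and -0.086 on Lira replicates 1, 2 and 3, so Lira replicate 2 stood out. It was -0.062, -0.013 and -0.076 on placebo replicates 1, 2 and 3. Endothelial markers were higher in 4 of 5, with a median of 0.12, and fibroblast markers in 3 of 5, with a median of 0.12. Smooth muscle markers were higher in 2 of 3 tested, with a median of 0.16. Acta2 among them differed by 0.75 on a probe set that ends in _s_at, with every Lira array above every placebo array. Its unadjusted p was 0.00587 and its adjusted p 0.589 in limma. The skeletal muscle, atrial, red cell and T and B cell lists had medians below 0. Of 4 tested skeletal muscle markers 3 were lower, with a median of -0.28, and Acta1 among them passed the adjusted threshold (-0.90 ± 0.14, adjusted p = 0.022 in limma). Of 3 tested atrial markers 2 were lower, with a median of -0.61, Nppa by -0.67 ± 0.14 (adjusted p = 0.161 in limma). The median is the value of Bmp10, which was dim at 4.33 to 77.4. Myl4 was higher, by 0.27 ± 0.18. Myl7 and Sln of the atrial list and Myh4 and Tnnt3 of the skeletal muscle list were too dim to be tested. Myh2 and Tnni2 of the latter were dim as well, at 18.2 to 70.5 and 21.6 to 38.6. The atrial and skeletal muscle results thus rest on few bright genes and do not show how much of either tissue was present. In whole tissue, more cells of a type and more RNA per cell cannot be told apart. On placebo replicate 3, where ribosomal protein genes were high, the median deviation was -0.20 for endothelial, -0.21 for fibroblast, -0.042 for macrophage and -0.076 for cardiomyocyte markers. It was 0.44 for atrial, 0.35 for skeletal muscle, 0.54 for red cell and 0.29 for T and B cell markers, the last 2 at very low signal. The summed signals of atrial and skeletal muscle markers were higher on this array than on the other 5. Nearly all of the atrial sum there was Nppa, at 3037, of 3218. Nearly all of the skeletal muscle sum was Ckm and Acta1, at 15230 and 3553, of 18890. These sums thus rest on few genes of each list. The part of these markers in the results was not tested. No list had a summed signal of 0, and the lowest sums were those of the T and B cell and red cell markers given above.

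Genes with and without the pyrimidine run at their start differed little in these data. The 20 tested genes with a run had a median log2 difference of 0.062, with 16 above 0, and the 22 without it had a median of 0.083, with 19 above 0.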

How the data were processed

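The authors deposited a linear signal intensity for every probe set on each array. The submitters' processing notes name Affymetrix Expression Console. Its version, the summarisation and a genome build were not given in the sources used here. On 45101 probe sets, 64 of them controls that were not used, 34958 carried 1 gene symbol and 932 several, and symbols were updated through RefSeq gene IDs (99.42% matched). The brightest single-gene probe set by mean represented each gene. Values were taken as log2(signal + 16), which understates the change of dim genes, and genes in the lowest 30% by mean were not tested. Detection calls were not used. Lira and placebo mice were compared by two-sided tests in limma 3.58.1 (R 4.3.3), using lmFit and trended eBayes with Benjamini-Hochberg adjustment, which was tested on simulated data. Paralog pairs were compared by exact permutation in scipy 1.17.1. Promoter sequences came from RefSeq; protein sequences were not used here.

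Each mouse is 1 replicate. The members, lists and tests were chosen with earlier results of these data known. The rule for named genes took members past the threshold, up to 8 per direction whose groups do not overlap, a fixed set of stalk, extraribosomal and paralog genes, and of each related list the genes past the threshold, up to 4 with the smallest p and a fixed set. Rpl12, Rpl14, Rpl27, Rpl27a, Rpl35, Rpl37, Rpl37a, Rpl38, Rps2, Rps3a1, Rps7, Rps9, Rps10, Rps16, Rps20 and Rps24 were named beyond it after their values were seen. Replicate numbers were not stated to pair the mice. Correlations of deviations between arrays of the same number were -0.030, 0.083 and -0.090. Those between unlike numbers ran from -0.15 to 0.18. With 3 arrays per group these values cannot show whether mice were paired. Alternatives covered normalisation, filter, pseudocount, probe set choice, variance model, array weights, a replicate block and each array left out. The design text speaks of 10 mice; others than these 6 were not analysed here.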

Additional observations from a re-analysis of the deposited data

How the results depend on the processing

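No ribosomal protein gene passed the adjusted threshold in limma under any alternative run, and the median log2 difference stayed above 0, from 0.032 with the averaged probe sets of each gene (28 of 48 genes higher) to 0.11 without placebo replicate 3. Leaving out 1 array at a time gave 32 to 40 genes higher, 1 to 7 genes at an unadjusted p under 0.05, medians of 0.035 to 0.11 and 4 to 25 genes whose groups do not overlap. In these smaller designs at most 22.7% of all genes do not overlap in either direction. An unadjusted p under 0.05 in limma is found for 4.92% to 6.78% of all genes there. The 25 genes without placebo replicate 3 are 52.1% of the 48 against 20.1% of all genes. That array was the highest placebo array for most of the 48, so leaving it out favoured this share. The 4 to 8 genes without another array are 8.33% to 16.7%. With the replicate number as a block the count at an unadjusted p under 0.05 was 1, the median was 0.062 and no call changed. The same count was 4 with array weights (3 higher, 1 lower), 3 with quantile normalisation, 2 with averaged probe sets, 2 without probe sets that end in _s_at or _x_at, and 0 when arrays were centred on the brightest genes, with no filter or with no variance trend. Groups did not overlap in 5 genes with quantile normalisation and in 4 with averaged probe sets. For the alternatives that keep all arrays, the shares of all genes are not given here. These counts are therefore not read as a result about the ribosomal protein genes. Alternatives chosen after the values were seen gave medians of 0.071 for genes with a mean signal from 1000 upward and 0.070 for shared probe sets that bright.

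Some log2 differences turned sign, none of a gene past the adjusted threshold, and the cause was not tested. Vim alone of them had an unadjusted p under 0.05. Averaged probe sets gave -0.037 for Rpl13a, -0.073 for Rpl7l1, -0.059 for Rps3, -0.18 for Rps4x, -0.080 for Rps6, -0.046 for Tpt1, 0.048 for Npm1, -0.059 for Ncl and 0.024 for Fbl, the paralog gap of Rpl7l1 was -0.14 and the median of RNA polymerase I and its factors -0.049. Array weights gave 0.048 for Npm1 and 0.012 for Fbl. Median centring gave 0.0018 for Rpl39, 0.0037 for Npm1 and 0.0046 for Fbl. Quantile normalisation gave -0.018 for Tpt1 and 0.015 for Npm1. Without probe sets that end in _s_at or _x_at the gap of Rpl22l1 was -0.024 and Vim differed by 0.15. Leaving out 1 array turned Rpl7 (range -0.024 to 0.081), Rpl11 (-0.11 to 0.038), Rpl13a (-0.024 to 0.079), Rpl22 (-0.0053 to 0.046), Rpl39 (-0.17 to 0.21), Rpl7l1 (-0.0046 to 0.070), its gap to Rpl7 (-0.085 to 0.072, an alternative chosen after the values were seen), Npm1 (-0.063 to 0.070), Fbl (-0.15 to 0.13), Tpt1 (-0.011 to 0.18) and Zmat3 (-0.42 to 0.021). No detection call was used, so signal over background is unknown.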
